A study of Mus musculus with 11 samples.

Results

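Expression of metal ion carriers and metallothioneins was compared between the colons of 5 germ-free and 6 humanized mice. The genes were taken by symbol and comprised the carrier families Slc11a, Slc30a, Slc31a, Slc39a, Slc40a and Slc41a together with Mt1 and Mt2, which gave 34 of the 43346 genes in the count table. All 11 animals were male Swiss Webster mice, 8 to 10 weeks old at study, singly housed in isolators. The germ-free mice were kept without microbes, and a control gavage of these mice is not described in the sources used here. The humanized mice began as germ-free animals and were colonized by mouth when 4 to 5 weeks old, which was 4 to 5 weeks before tissue was taken. Each received 300 μL of a suspension made from equal volumes of human stool and buffer. All the stool came from 1 healthy human donor, so the humanized group stands for a single microbiota. Polyadenylated RNA of colon tissue was sequenced, and neither the position along the colon nor whether the muscle layer was kept is stated in the sources used here.

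Cells keep free zinc, copper, iron and manganese very low, and the level inside the cell is set by carriers of opposite direction. Members of the Slc39a (ZIP) family bring zinc, and in some cases manganese or iron, into the cytosol, whereas members of the Slc30a (ZnT) family move zinc, or manganese, out of it. Metallothioneins are small cysteine-rich proteins that bind zinc and copper, and their genes are switched on by the zinc-sensing transcription factor MTF-1, which binds metal response elements in promoters. In the colon, the epithelium takes up, stores and exports these metals, and resident bacteria need the same metals.

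The germ-free libraries held 49097005 to 64148538 counts (median 56718640), and the humanized libraries held 39125290 to 54219854 (median 43784996). Libraries of humanized colon carried less signal of the gut wall, as judged from marker genes chosen for the other cell types of the tissue. All 9 smooth muscle markers were lower in humanized mice, with a summed level of 868 to 2475 CPM (counts scaled to a common library size) in germ-free and 90.5 to 878 CPM in humanized mice. Lower levels were also found for 5 of 6 fibroblast markers (1338 to 1800.5 against 123 to 987 CPM), 8 of 8 markers of enteric neurons and glia (24.2 to 34.0 against 4.53 to 11.4 CPM) and 2 of 3 tested distal Hox genes (10.5 to 18.8 against 1.31 to 7.74 CPM). Macrophage markers split, with 1 of 9 higher and 2 lower (178 to 219 against 141 to 229.9 CPM). Higher levels were found for 2 of 11 epithelial markers (9495 to 12786 against 10855 to 15461 CPM), and the other 9 did not pass. The same held for 3 of 6 goblet cell markers (7412 to 10915 against 11265 to 15739 CPM) and 4 of 5 plasma cell markers (256 to 327 against 457 to 1268 CPM). In the edgeR exact test that gave these marker counts, 9.20% of all 19863 tested genes were higher and 10.1% were lower. Humanized mouse 5 had the lowest summed level of the smooth muscle, fibroblast, neuronal and Hox markers. Few genes of the remaining lists could be tested. These were 2 of 4 adipocyte markers (16.4 to 55.4 against 5.01 to 17.0 CPM), 2 of 5 neutrophil markers (1.57 to 1.70 against 0.800 to 4.83 CPM) and 1 of 5 pancreatic acinar markers. Cpa1 and Pnlip were at 0 in all mice, and Cela1 was higher in humanized mice. Each sum covers all genes of its list, tested or not. Germ-free mouse 4 alone gave the adipocyte sum of 55.4 CPM, and the other germ-free mice had 16.4 to 20.8 CPM. None of the adipocyte or neutrophil markers passed the edgeR exact test, with 1 and 0 at an unadjusted p under 0.05, and none passed in edgeR's quasi-likelihood test or in DESeq2. In bulk tissue, fewer cells of a type and less RNA per cell cannot be told apart, and this holds for every difference given here.

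Of the 34 genes, 31 passed the filter on low counts and were tested. The others were the zinc importer Slc39a12, with 0 to 2 counts per mouse, the vesicular zinc exporter Slc30a3, with 0 to 4, and Slc30a8, the zinc exporter of insulin granules, which had 0 counts in all 11 mice. A count of 0 allows up to 3 counts, which for Slc30a8 corresponds to 0.0218 to 0.0414 RPKM (reads scaled by library size and by the deposited gene length) per mouse, for counting error only. A mean above 20 RPKM over all mice was found for 12 of the tested genes. The metallothioneins led in germ-free colon, followed by the zinc importers Slc39a1, Slc39a4 and Slc39a7 and the zinc exporter Slc30a4, each between 45.6 and 57.6 RPKM in that group. The group means of the manganese and magnesium carriers were below 11 RPKM. Slc39a2 and Slc30a2, both zinc carriers, were barely detected, at 0.166 and 0.0983 RPKM in germ-free mice and 0.141 and 0.0863 RPKM in humanized mice.

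**Figure D1:**
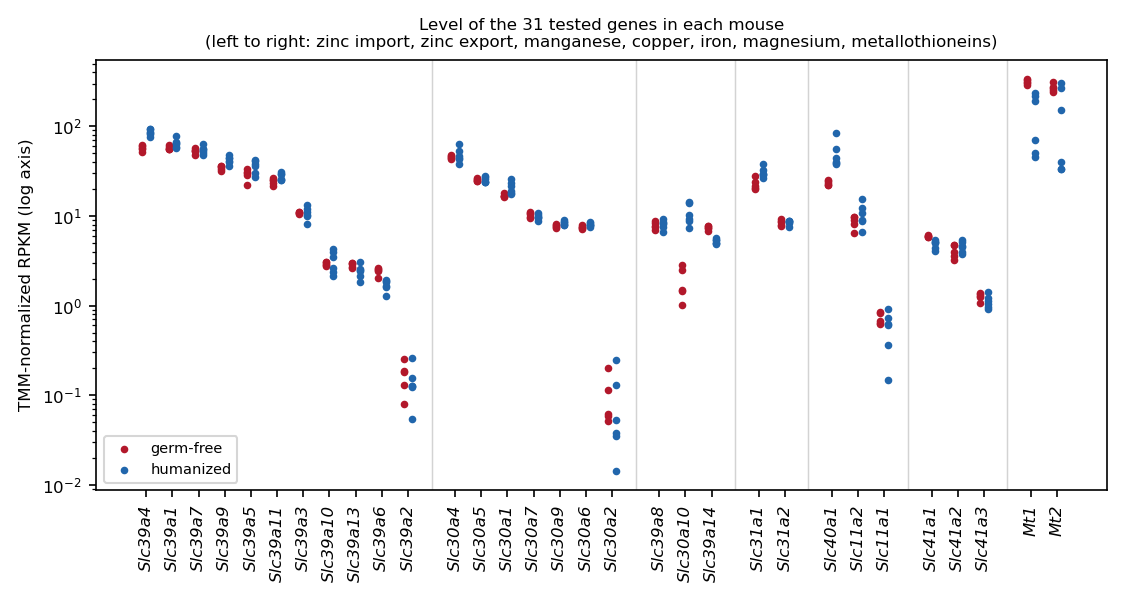
Level of each tested carrier and metallothionein gene in every germ-free and humanized mouse, in RPKM on a log axis, grouped by metal with 1 point per mouse. The 2 metallothioneins lie at the top in germ-free mice (means 313 and 269 RPKM), and Slc30a10 and Slc40a1 show the widest gaps between groups among the carriers.

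Humanized mice differed from germ-free mice in 8 of the 31 tested genes (25.8%) at a false discovery rate (FDR) below 0.01 in the edgeR exact test, against 19.3% of the 19863 genes tested. The manganese exporter Slc30a10 changed most, 5.75-fold. Higher expression in humanized colon was found for 5 genes (16.1%, against 9.20% of all tested genes), namely Slc30a10, the iron exporter Slc40a1, the zinc importers Slc39a4 and Slc39a9 and the copper importer Slc31a1. Lower expression was found for 3 genes (9.68%, against 10.1%), namely Slc39a14, Slc39a6 and Slc41a1. Germ-free and humanized mice formed separate ranges for 7 genes (22.6%, against 18.4% of all tested genes), of which 3 were higher (8.67% of all tested genes) and 4 lower (9.73%). The median log2-fold change (LFC, humanized over germ-free) was 0.04 over the 31 genes and 0.01 over all tested genes. Among the 23 genes that did not pass, 13 had an LFC above 0 and 10 below 0, and the LFC was within 0.32 of 0 for 20 of them.

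**Figure D2:**
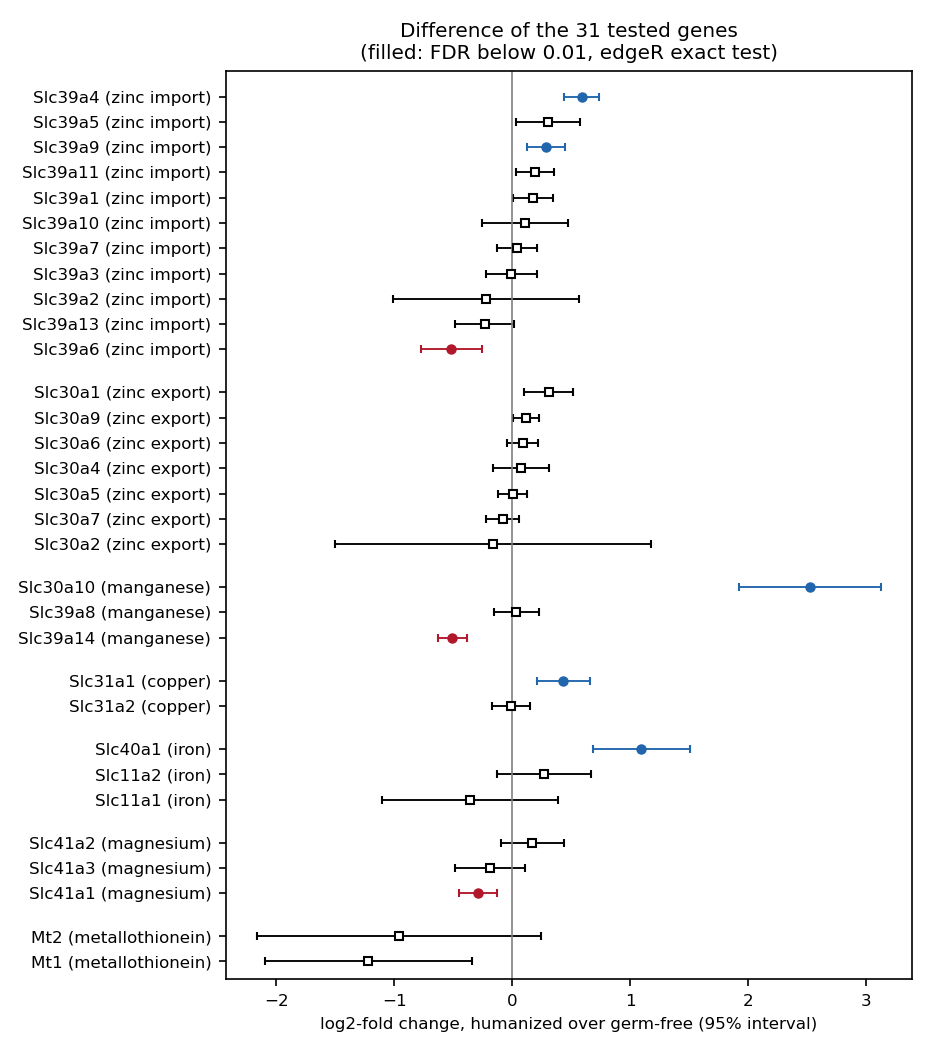
LFC of each tested carrier and metallothionein gene (humanized over germ-free) with its 95% interval from the edgeR quasi-likelihood fit, grouped by metal, with genes at FDR below 0.01 marked. Slc30a10 stands at 2.52 and Slc40a1 at 1.09, while the zinc exporters lie between -0.16 and 0.31.

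The split between higher and lower genes moved with the scaling of the libraries. Scaling by total counts put the median of all tested genes at an LFC of -0.18 and gave 3 genes higher and 4 lower, against 773 and 3609 of all tested genes. Scaling by 11 epithelial marker genes put that median at -0.24 and gave 2 higher and 4 lower, against 484 and 2726. With the main scaling 1827 of all tested genes were higher and 1999 lower. Slc30a10 and Slc40a1 stayed higher and Slc39a14 stayed lower, with FDR below 0.01, under every scaling, test, filter and left-out library that was tried, apart from a criterion of an absolute LFC above 1, which Slc39a14 does not meet by its size.

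**Figure D3:**
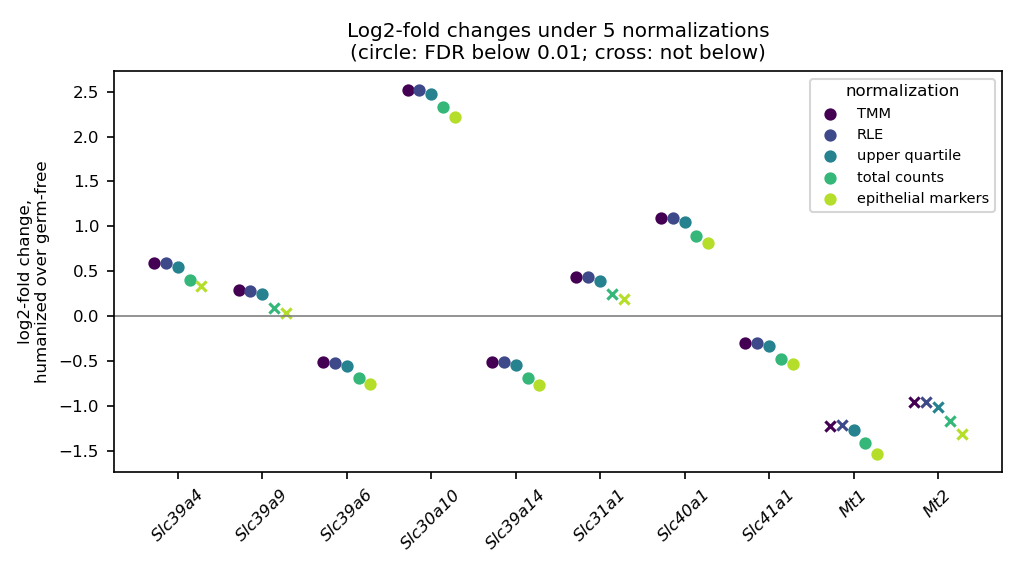
LFC of the genes that passed the exact test, and of Mt1 and Mt2, under each way of scaling the libraries, with circles for FDR below 0.01 and crosses otherwise. Slc30a10 and Slc40a1 stay far above 0 throughout, while Slc39a9 moves from 0.29 with the main scaling to 0.03 with epithelial markers.

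Zinc importers included some of the most abundant carriers in the colon, and 2 of 11 tested genes were higher and 1 was lower (9.20% and 10.1% of all tested genes), while 8 did not pass. The gene with the clearest difference was Slc39a4 (chromosome 15, 76612385 to 76616852, mm10), which encodes ZIP4, the apical importer of dietary zinc whose loss in humans causes acrodermatitis enteropathica. Slc39a4 was measured at 57.2, 60.4, 62.0, 55.7 and 52.2 RPKM in germ-free mice 1 to 5 and at 93.9, 82.9, 76.2, 85.4, 93.5 and 87.6 RPKM in humanized mice 1 to 6. Every humanized mouse lay above every germ-free mouse, and the spread within each group was small. The mean rose 1.51-fold from 57.5 ± 3.85 RPKM (SD, n = 5) to 86.6 ± 6.70 RPKM (SD, n = 6). The LFC was 0.59 (SE 0.07), with an FDR of 3.09e-11 in the edgeR exact test. With this increase, and by the deposited gene lengths, Slc39a4 was the most abundant zinc importer over the 11 mice. Another annotation (GENCODE M21) gives Slc39a4 3106 exon bases, against a deposited length of 2224, and the rank can depend on the length used. Under scaling by epithelial markers the LFC was 0.33 and the gene no longer passed (FDR 0.0163).

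Slc39a9 (chromosome 12, 80644215 to 80683341), which encodes the Golgi and plasma membrane importer ZIP9, was also higher, but by less. Its levels were 31.7, 35.9, 33.6, 35.0 and 36.3 RPKM in germ-free mice 1 to 5 and 40.9, 44.1, 35.9, 39.6, 48.0 and 44.0 RPKM in humanized mice 1 to 6. The groups overlapped slightly, since humanized mouse 3 lay below germ-free mouse 5. The mean went from 34.5 ± 1.86 to 42.1 ± 4.20 RPKM, with an LFC of 0.29 (SE 0.07) and an FDR of 0.00526. This call was the least stable of the 8 genes, because the FDR was 0.0138 in the quasi-likelihood test, 0.328 with total counts, 0.829 with epithelial scaling, 0.0116 without the filter on low counts, and 0.01002 to 0.0288 without any 1 of germ-free mice 1 to 5 or humanized mice 1, 2, 5 and 6.

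Slc39a6 (chromosome 18, 24579881 to 24603817), which encodes ZIP6, an importer of the plasma membrane, was expressed at a low level and fell. It reached 2.43, 2.47, 2.58, 2.63 and 2.06 RPKM in germ-free mice 1 to 5 and 1.67, 1.92, 1.90, 1.84, 1.28 and 1.60 RPKM in humanized mice 1 to 6. No humanized mouse reached the lowest germ-free value, and humanized mouse 5 had the lowest level of all. The LFC was -0.52 (SE 0.12, FDR 0.00328), a 1.43-fold lower mean (2.43 ± 0.226 against 1.70 ± 0.242 RPKM). The stromal marker sums were lower in the same mice, and their part in this difference was not tested. Without germ-free mouse 1, 2, 3 or 4 the FDR was between 0.0119 and 0.0202.

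The other 8 tested zinc importers, Slc39a1, Slc39a2, Slc39a3, Slc39a5, Slc39a7, Slc39a10, Slc39a11 and Slc39a13, did not pass, with FDR from 0.0717 to 0.972. Their LFC ranged from -0.23 for Slc39a13, a carrier of the early secretory pathway, to 0.30 for Slc39a5, a basolateral importer of the gut epithelium (29.0 ± 4.08 against 35.8 ± 5.93 RPKM). Slc39a1 and Slc39a7, of which the latter releases zinc from the endoplasmic reticulum, were close to Slc39a4 in germ-free mice, at 57.6 ± 2.68 and 53.2 ± 3.63 RPKM. Their means in humanized mice were 65.0 ± 7.73 and 54.6 ± 5.73 RPKM, with FDR of 0.142 and 0.801. The exons of Slc39a7 overlap an annotated gene on the same strand over 80.7% of their bases. How reads from that stretch were counted is not stated in the sources used here, so the level is uncertain.

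None of the 7 tested zinc exporters passed the edgeR exact test, and neither the quasi-likelihood test nor DESeq2 called any. At an unadjusted p under 0.05 there was 1 gene, Slc30a1, which encodes the plasma membrane exporter ZnT1 and is itself a known target of MTF-1. Its mean was 16.9 ± 0.627 RPKM in germ-free and 20.9 ± 3.26 RPKM in humanized mice (LFC 0.31, FDR 0.0162). It passed without humanized mouse 1 (FDR 0.00704) or humanized mouse 3 (FDR 0.00289), and under a threshold of 0.05. The most abundant exporter was Slc30a4, which loads zinc into vesicles. Slc30a4 was measured at 47.5, 46.6, 43.6, 45.8 and 44.7 RPKM in germ-free mice 1 to 5 and at 43.2, 46.5, 38.03, 44.2, 63.2 and 53.1 RPKM in humanized mice 1 to 6. Humanized mice held both the lowest and the highest values, with mouse 5 on top. The LFC was 0.07 (95% interval -0.16 to 0.31, FDR 0.699), and it turned to -0.12 with total counts and -0.20 with epithelial scaling. The remaining exporters, Slc30a2, Slc30a5, Slc30a6, Slc30a7 and Slc30a9, had LFC from -0.16 to 0.12 and FDR from 0.199 to 0.980. The smallest difference was that of Slc30a5, a Golgi zinc exporter, at 25.4 ± 0.949 against 25.5 ± 1.83 RPKM (95% interval of the LFC -0.12 to 0.13).

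Manganese carriers showed the largest change of the set. Slc30a10 (chromosome 1, 185454848 to 185468762), despite its place in the zinc exporter family, encodes a manganese exporter whose loss in humans leads to manganese accumulation. Its levels were 2.52, 2.81, 1.44, 1.51 and 1.01 RPKM in germ-free mice 1 to 5 and 7.30, 8.80, 9.18, 10.4, 14.5 and 13.9 RPKM in humanized mice 1 to 6. The groups were far apart, with the lowest humanized mouse well above the highest germ-free mouse. The mean rose 5.75-fold, from 1.86 ± 0.768 to 10.7 ± 2.90 RPKM, with an LFC of 2.52 (SE 0.28, 95% interval 1.92 to 3.12) and an FDR of 7.89e-17. An antisense gene overlaps 9.1% of the exon bases of Slc30a10, and since the library kit does not mark strand, reads from that stretch cannot be assigned to either gene. The change in level was among the larger ones in the colon, as 2.04% of all tested genes were higher with an absolute LFC above 1 and 6.41% were lower by as much.

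Slc39a14 (chromosome 14, 70303469 to 70351425) encodes ZIP14, an importer of manganese, iron and zinc, and went the opposite way. It was measured at 7.68, 7.78, 6.85, 7.37 and 7.29 RPKM in germ-free mice 1 to 5 and at 4.81, 4.93, 4.97, 5.37, 5.75 and 5.37 RPKM in humanized mice 1 to 6. The groups did not overlap and the spread was small in both. The mean was 1.42-fold lower (7.39 ± 0.366 against 5.20 ± 0.356 RPKM, LFC -0.51, SE 0.06, FDR 2.43e-10). Humanized mouse 5, with the lowest stromal markers, had the highest Slc39a14 level of its group, and the part of the stromal markers in the difference was not tested.

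Slc39a8, which encodes the related importer ZIP8, was the most abundant of the manganese carriers over the 11 mice. In humanized mice alone, Slc30a10 had the higher mean (10.7 RPKM, against 8.10 RPKM for Slc39a8). Slc39a8 levels were 8.38, 8.88, 7.56, 6.91 and 7.82 RPKM in germ-free mice 1 to 5 and 8.14, 9.32, 7.59, 8.50, 8.46 and 6.60 RPKM in humanized mice 1 to 6. The ranges were nearly the same in both groups. The LFC of 0.03 did not pass (95% interval -0.16 to 0.22, FDR 0.848), and its sign turned with upper-quartile, total-count and epithelial scaling (-0.0034, -0.15 and -0.21).

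**Figure D4:**
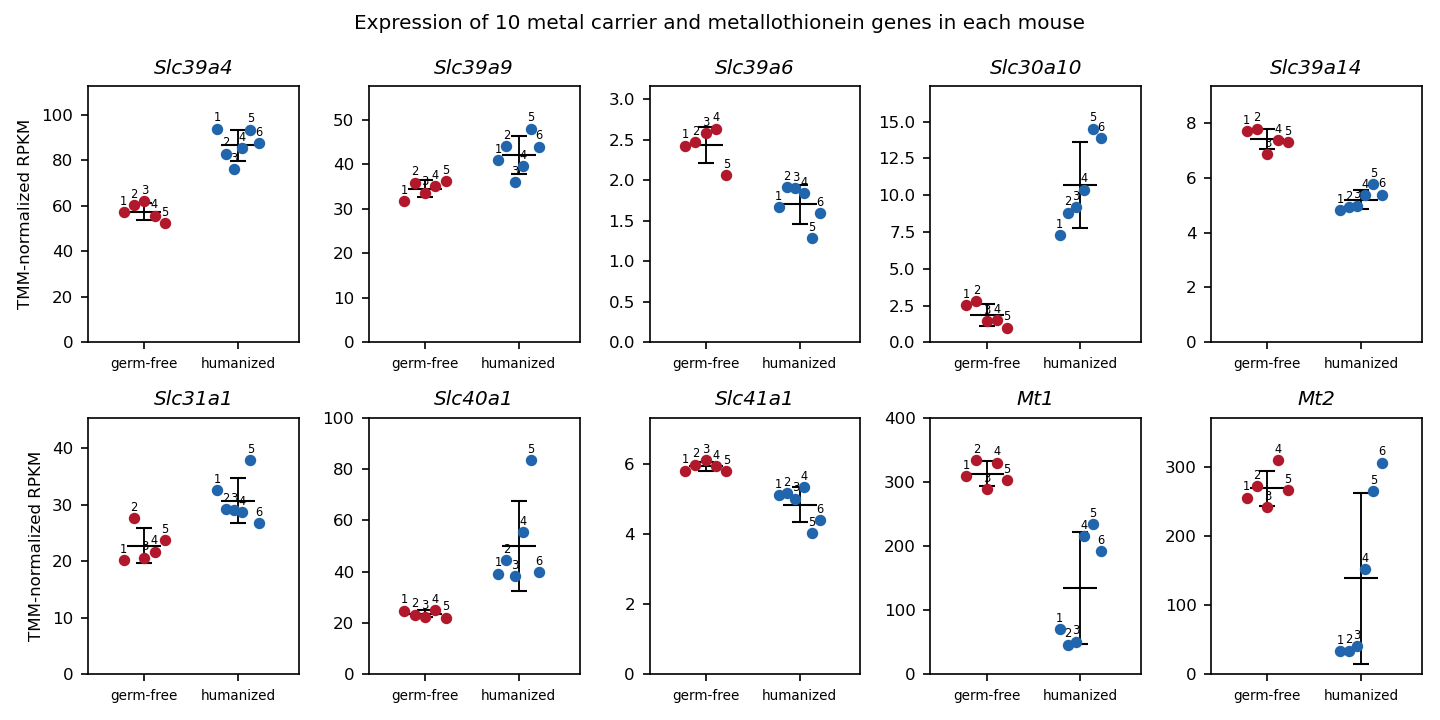
RPKM in each mouse for the 8 carriers that passed the exact test and for Mt1 and Mt2, with 1 numbered point per mouse and a black mark with bars for the group mean ± SD. Slc30a10, Slc40a1 and Slc39a4 separate the groups upward, Slc39a14 separates them downward, and Mt1 and Mt2 spread widely among humanized mice.

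Among the iron carriers, the exporter rose and the importers did not pass. Slc40a1 (chromosome 1, 45908068 to 45926523) encodes ferroportin, the only known cellular iron exporter, which acts at the basolateral side of enterocytes and in macrophages. Its levels were 24.7, 23.2, 22.4, 25.0 and 21.9 RPKM in germ-free mice 1 to 5 and 39.2, 44.5, 38.1, 55.5, 83.5 and 39.6 RPKM in humanized mice 1 to 6. Germ-free mice were tightly grouped, whereas humanized mice all lay above them and mouse 5 far above the rest. The mean rose 2.14-fold from 23.4 ± 1.38 to 50.0 ± 17.6 RPKM (LFC 1.09, SE 0.19, FDR 4.33e-07). Slc11a2, which encodes the ferrous iron importer DMT1, had means of 8.69 ± 1.39 and 10.5 ± 3.03 RPKM (LFC 0.27, FDR 0.306). Slc11a1, the phagosomal metal carrier NRAMP1 of macrophages and neutrophils, was low, with 26 to 192 counts per mouse, and had an LFC of -0.36 (FDR 0.506).

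Both copper importers were expressed, and 1 was higher, against 9.20% of all tested genes. Slc31a1 (chromosome 4, 62360727 to 62391769) encodes CTR1, the high-affinity copper importer. It stood at 20.1, 27.6, 20.6, 21.7 and 23.7 RPKM in germ-free mice 1 to 5 and at 32.6, 29.2, 29.1, 28.7, 37.9 and 26.8 RPKM in humanized mice 1 to 6. The groups overlapped at 1 point, as germ-free mouse 2 lay above humanized mouse 6. The mean was 1.35-fold higher (22.7 ± 3.06 against 30.7 ± 3.98 RPKM, LFC 0.43, SE 0.10, FDR 9.58e-04). The call was lost when libraries were scaled by total counts (LFC 0.24, FDR 0.0528) or by epithelial markers (LFC 0.19, FDR 0.250). Slc31a2, which encodes the related protein CTR2 of endosomes and lysosomes, had means of 8.50 ± 0.643 and 8.43 ± 0.520 RPKM (LFC -0.01, 95% interval -0.17 to 0.15, FDR 0.956).

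The Slc41a genes encode magnesium carriers, and 1 of 3 was lower, against 10.1% of all tested genes. Slc41a1 (chromosome 1, 131827493 to 131848865), which exports magnesium at the plasma membrane, was measured at 5.82, 5.99, 6.12, 5.96 and 5.81 RPKM in germ-free mice 1 to 5 and at 5.12, 5.18, 5.02, 5.34, 4.04 and 4.40 RPKM in humanized mice 1 to 6. Germ-free mice were nearly identical and humanized mice all lower, with mice 5 and 6 lowest. The mean was 1.23-fold lower (5.94 ± 0.127 against 4.85 ± 0.511 RPKM, LFC -0.29, SE 0.07, FDR 0.00803). The FDR rose above the threshold in the quasi-likelihood test (0.0116), without the filter on low counts (0.0195), and without any 1 of germ-free mice 1 to 5 or humanized mice 1 and 6 (0.0123 to 0.0338). Slc41a2 and Slc41a3 did not pass, with LFC of 0.17 and -0.19 and FDR of 0.395 and 0.466.

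The metallothioneins had the highest group means of the set, with levels that were even among germ-free mice and spread widely among humanized mice. Mt1 (chromosome 8, 94179089 to 94180325) was measured at 309, 334, 289, 330.2 and 303 RPKM in germ-free mice 1 to 5 and at 69.6, 45.9, 50.6, 216, 233 and 191 RPKM in humanized mice 1 to 6. Germ-free mice were close together, and all humanized mice lay below them. Mt2 (chromosome 8, 94172618 to 94173567) was measured at 256, 272, 241, 309.6 and 266 RPKM in germ-free mice and at 33.3, 33.7, 39.8, 152, 265 and 306 RPKM in humanized mice. Humanized mice 1 to 3 held the 3 lowest values of both genes, and for Mt2 the levels of mice 5 and 6 fell within the germ-free range. In humanized mice 1 to 3 both genes lay below Slc39a4.

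Neither metallothionein passed the edgeR exact test, the quasi-likelihood test or DESeq2, and Mt1 alone had an unadjusted p under 0.05. Mean Mt1 was 313 ± 19.0 RPKM in germ-free and 134 ± 87.9 RPKM in humanized mice (LFC -1.22, SE 0.40, 95% interval -2.10 to -0.34, FDR 0.0119). Mean Mt2 was 269 ± 25.6 and 138 ± 123 RPKM (LFC -0.96, SE 0.56, 95% interval -2.16 to 0.25, FDR 0.186). Mt1 passed with upper-quartile (FDR 0.00750), total-count (0.00227) and epithelial scaling (2.48e-04, LFC -1.54), with at least 10 counts required in every mouse (0.00982), and without humanized mouse 4 (0.00552), 5 (0.00155) or 6 (0.00978), and also under a threshold of 0.05.

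As a share of the germ-free mean, Mt1 stood at 22.2, 14.7 and 16.2% in humanized mice 1 to 3 and at 68.9, 74.6 and 61.1% in mice 4 to 6. For Mt2 the shares were 12.4, 12.5 and 14.8% in mice 1 to 3 and 56.5, 98.6 and 114% in mice 4 to 6. These values are given per mouse only, since no label divides the humanized mice. The coefficient of variation of Mt1 was 6.06% in germ-free and 65.4% in humanized mice, and that of Mt2 was 9.52 and 89.2%. The medians over the 31 genes were 6.70 and 14.2%, and over all tested genes 10.4 and 16.5%. The metallothioneins also did not keep a fixed ratio. The ratio of Mt2 to Mt1 RPKM was between 0.814 and 0.938 in germ-free mice and was 0.478, 0.733, 0.786, 0.705, 1.14 and 1.60 in humanized mice 1 to 6. The longest stretch of identical bases between their transcripts is 20, against reads of 101 bases. An annotated gene on the opposite strand that is not in the count table covers 73.5% of the Mt2 exon bases, so its reads, if any, would count as Mt2.

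The promoters of the genes above differ in how many metal response element cores they hold, and 4 are shown as examples of many, several and few. The metallothioneins are the classic targets of MTF-1, Slc30a10 is the gene that changed most, and Slc30a1 is the zinc exporter known as an MTF-1 target. The core was searched as TGCACNC or TGCGCNC on both strands, with overlapping matches on opposite strands counted separately, from 250 bases before to 30 bases after the RefSeq transcription start (GRCm38.p6, which shares its coordinates with mm10). Sequences are written 5′ to 3′ on the strand of the gene, with cores in capitals. The windows are chr8:94178839-94179118 for Mt1, chr8:94172368-94172647 for Mt2, chr1:185454598-185454877 for Slc30a10 and chr1:191906531-191906810 for Slc30a1, all on the plus strand.
Mt1: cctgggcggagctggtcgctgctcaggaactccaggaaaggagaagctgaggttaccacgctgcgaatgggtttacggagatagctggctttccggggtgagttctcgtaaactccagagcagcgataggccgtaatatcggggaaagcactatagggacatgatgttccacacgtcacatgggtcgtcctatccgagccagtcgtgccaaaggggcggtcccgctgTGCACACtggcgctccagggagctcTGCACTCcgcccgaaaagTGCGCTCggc
Mt2: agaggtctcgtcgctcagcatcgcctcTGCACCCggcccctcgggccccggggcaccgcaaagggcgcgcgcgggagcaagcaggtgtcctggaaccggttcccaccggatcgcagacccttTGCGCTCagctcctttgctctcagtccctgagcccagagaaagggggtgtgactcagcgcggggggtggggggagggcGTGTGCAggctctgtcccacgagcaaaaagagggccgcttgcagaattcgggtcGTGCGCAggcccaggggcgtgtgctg
Slc30a10: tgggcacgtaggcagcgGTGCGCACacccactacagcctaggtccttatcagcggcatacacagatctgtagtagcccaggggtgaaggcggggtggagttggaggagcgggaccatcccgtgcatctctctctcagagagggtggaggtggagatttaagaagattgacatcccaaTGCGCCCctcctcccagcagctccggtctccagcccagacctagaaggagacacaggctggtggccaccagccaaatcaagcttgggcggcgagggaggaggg
Slc30a1: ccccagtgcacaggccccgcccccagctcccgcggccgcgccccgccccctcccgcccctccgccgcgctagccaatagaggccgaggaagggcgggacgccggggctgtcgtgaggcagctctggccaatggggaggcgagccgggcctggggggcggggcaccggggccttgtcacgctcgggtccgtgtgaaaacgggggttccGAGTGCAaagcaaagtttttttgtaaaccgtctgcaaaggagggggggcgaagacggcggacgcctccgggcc

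The windows of Mt2, Mt1, Slc30a10 and Slc30a1 held 4, 3, 3 and 1 cores, and a pair of the Slc30a10 cores overlap on opposite strands. Cores beyond these windows, or near starts other than the RefSeq ones, were not counted. Slc30a4 also held 3 cores, and its LFC of 0.07 did not pass. A window was found for 28 of the 34 genes, which leaves out Slc40a1, Slc39a4, Slc39a14 and Slc39a6 among the 8 that passed the test, with 33 windows in all, and 18 of these windows held at least 1 core, against 24.1% of the 32851 windows of all genes. At least 3 cores were found in 4 windows, against 1.73% of all windows, and 0.4% of all windows held at least 4. A matching core is a description of the letters and is not a measured binding site.

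Metal-handling genes outside the carrier families were taken from a list of 41 partners, of which 38 were tested. Here 5 were higher and 2 were lower, against 9.20% and 10.1% of all tested genes, 31 did not pass, and their median LFC was 0.11. The largest change was that of Steap4, a membrane reductase of iron and copper ions, which stood at 2.44, 2.11, 2.73, 4.81 and 4.24 RPKM in germ-free mice 1 to 5 and at 14.3, 38.6, 28.3, 27.2, 36.3 and 11.1 RPKM in humanized mice 1 to 6. Humanized mice were all higher and differed widely among themselves. The mean rose 7.95-fold from 3.27 ± 1.19 to 26.0 ± 11.3 RPKM (LFC 2.99, SE 0.36, FDR 1.06e-14).

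Among 12 tested iron partners 2 were higher and 1 lower (9.20% and 10.1% of all tested genes). The ferritin subunits that store iron in the cell rose beside Slc40a1. Fth1, the heavy chain, had means of 1682 ± 98.8 and 2691 ± 532 RPKM (LFC 0.68, FDR 3.03e-06), and Ftl1, the light chain, had means of 319.8 ± 13.1 and 494 ± 86.0 RPKM (LFC 0.63, FDR 1.37e-06). Humanized mouse 5 had the highest level of Slc40a1, Fth1 and Ftl1. Cybrd1, the duodenal ferric reductase, was low and fell (1.08 ± 0.0835 against 0.499 ± 0.235 RPKM, LFC -1.11, FDR 0.00390), with its lowest level in humanized mouse 5. That mouse also had the lowest stromal marker levels, whose part in the Cybrd1 difference was not tested. Cybrd1 did not pass in the quasi-likelihood test (FDR 0.0180) or without any 1 of germ-free mice 1, 2, 3 and 5 or humanized mice 1 and 6 (0.0114 to 0.0143), and Ftl1 did not pass with epithelial scaling (LFC 0.36, FDR 0.0147). DESeq2 called 6 of the 12 iron partners, against 2185 of all 19863 tested genes called higher and about as many called lower. The quasi-likelihood test called 2 of the 12, against 1401 higher and 1298 lower over all tested genes.

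Among 11 tested copper partners 3 were higher, Steap4 included, and 1 was lower (9.20% and 10.1% of all tested genes). Cox17 and Sco1, which hand copper to cytochrome c oxidase in mitochondria, were higher (LFC 0.32, FDR 0.00139, and LFC 0.43, FDR 4.16e-05). Sco2, a paralog of Sco1 with a role in the same assembly, was lower (LFC -0.38, FDR 0.00776). Cox17 and Sco1 lost their calls with total-count (FDR 0.206 and 0.0143) and with epithelial scaling (0.693 and 0.208), and Cox17 also without germ-free mouse 2 (0.0119). Sco2 did not pass in the quasi-likelihood test (FDR 0.0162), without the filter on low counts (0.0148), or without any 1 of germ-free mice 2 to 5 or humanized mice 1 to 3 (0.0107 to 0.0361).

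No partner passed the edgeR exact test for zinc (4 tested), manganese (2 tested) or magnesium (9 tested). At an unadjusted p under 0.05 there were 2, 0 and 1 genes, the quasi-likelihood test called 0 of each, and DESeq2 called 1, 0 and 0. Mtf1, which encodes MTF-1 and was singled out after its values were seen, had means of 4.27 ± 0.405 and 3.96 ± 0.474 RPKM (LFC -0.11, FDR 0.459).

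**Figure D5:**
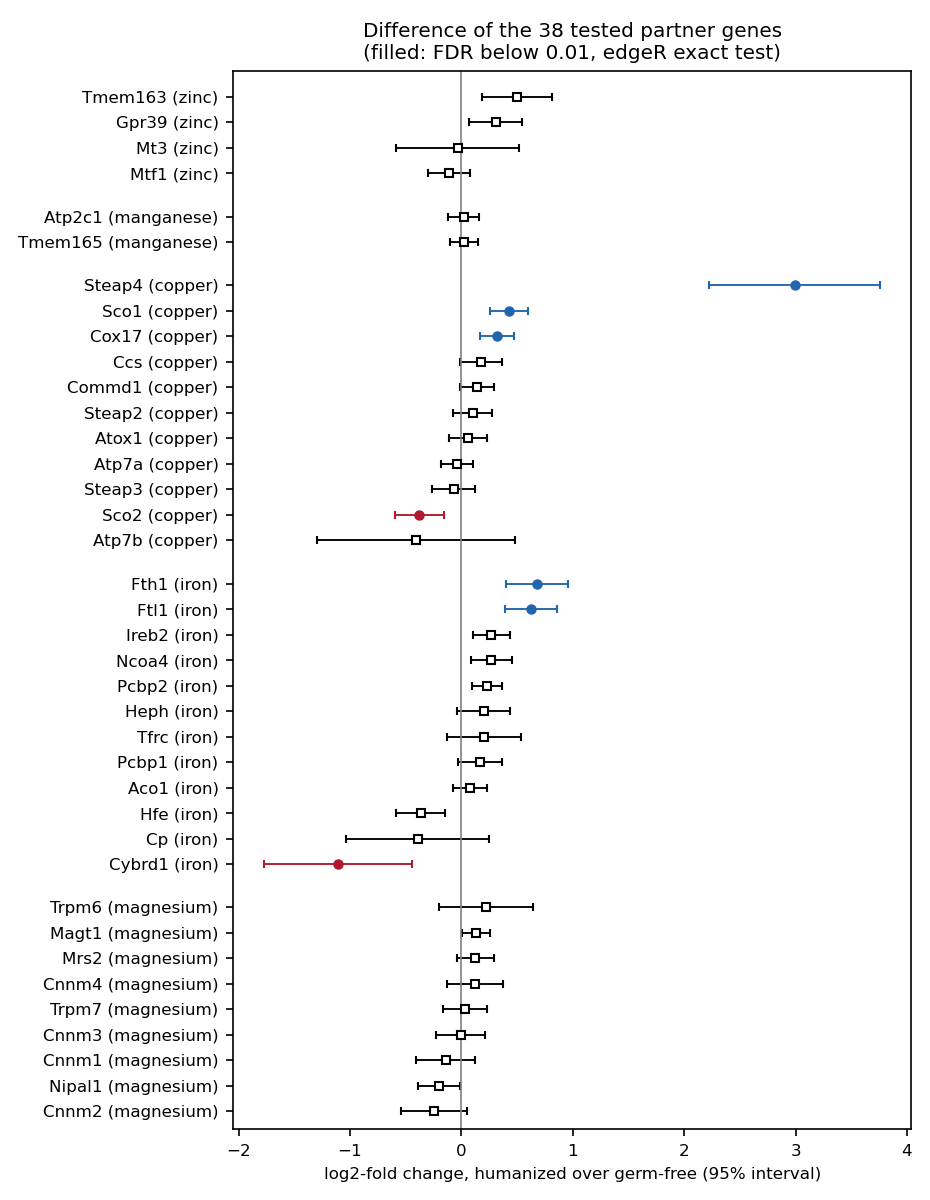
LFC of the tested partner genes of metal handling (humanized over germ-free) with 95% intervals from the edgeR quasi-likelihood fit, grouped by metal. Steap4 stands alone at 2.99, the ferritin subunits lie at 0.68 and 0.63, and the magnesium and manganese partners cluster around 0.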

How the data were processed

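RNA of colon tissue from 5 germ-free and 6 humanized male mice was sequenced as paired-end reads of 101 bases. Per the labels and the study's methods, the authors wrote reads to FASTQ with bcl2fastq 2.17.1.14, aligned reads to mm10 with TopHat2 2.1.0 and Bowtie2 2.2.3, and counted them per gene with featureCounts of Subread 1.4.6-p5. The deposited values are raw gene counts with a coding length per gene. The annotation release and strand setting are not given in the sources used here.

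Counts were analysed by the steps of the study's methods, but with another version of edgeR (4.0.16, in R 4.3.3), using filterByExpr defaults (minimum count 10, minimum total 15), TMM normalization, an exact test and Benjamini-Hochberg adjustment over 19863 genes, with a threshold of FDR below 0.01. RPKM used TMM library sizes and the deposited length. SE and 95% intervals of LFC came from edgeR's quasi-likelihood fit. DESeq2 1.42.0, other scalings, filters, thresholds, a replicate block and leaving out each mouse were alternatives. P-values and intervals cover the spread between these mice only.

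Carriers with FDR below 0.01, Mt1, Mt2 and the most abundant gene of each metal group are given per mouse, and partners with FDR below 0.01 are named with means or LFC, Steap4 also per mouse. The genes, partner list and marker lists were chosen with earlier results of these data known. Gene positions and overlaps come from GENCODE M21 (GRCm38), and promoter windows from RefSeq.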

Additional observations from a re-analysis of the deposited data

Results flagged for a closer look

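Ftl1, the ferritin light chain, had 343 RPKM in germ-free mouse 2, against 318 RPKM in the nearest of the other 4 germ-free mice. The gap to that mouse was 0.767 of the range of the group, above the critical value of Dixon's test for 5 samples. This was the 1 sample marked as far from its group among 76 groups of values examined, where chance alone gives about 1 in 20, or 3.8.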

How the results depend on the processing

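The main counts were 5 carrier and metallothionein genes higher and 3 lower, and 5 partner genes higher and 2 lower. Over all tested genes, 1827 were higher and 1999 lower. Of 796 alternatives computed for single genes, 683 kept the direction and the side of the threshold, 61 lost the call, 11 gained it and 41 changed sign. The quasi-likelihood test gave 0 partners lower, against 1298 of all 19863 tested genes. DESeq2 gave 8 higher, against 2185 of all tested genes, and an FDR threshold of 0.05 gave 9 higher, against 2780. No filter on low counts gave 1 lower, against 1954 of 30533 genes. An absolute LFC above 1 left 2 carriers higher and 0 lower, and 1 partner higher and 1 lower. Over all tested genes this criterion left 405 higher and 1273 lower. Total counts gave 3 carriers higher, and 3 partners higher and 5 lower, against 773 and 3609 of all tested genes. Epithelial markers gave 2 carriers higher, and 2 partners higher and 4 lower, against 484 and 2726. Leaving out 1 mouse at a time gave 4 to 6 carriers higher and 1 to 4 lower, and 4 to 8 partners higher and 0 to 3 lower. Over all genes tested in these fits, 1336 to 2088 were higher and 1486 to 2323 lower. The 1 carrier lower occurred without germ-free mouse 1, 2, 3 or 4, the 8 partners higher without humanized mouse 3, and the 0 partners lower without germ-free mouse 2, 3 or 5 or humanized mouse 1.

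The mice carry the same replicate numbers in both groups. The correlations of same-numbered mice were -0.133 to 0.091 over 5 pairs, none above 0.1, and 1 of 5 correlated best with its own number. These values show no sign that the numbers pair the mice, but 5 pairs are too few to exclude it. With a replicate block, 3 carriers were higher and 1 lower, 1 partner was higher and 0 lower, against 506 and 506 of all tested genes, and the LFC of Slc31a2 turned to 0.024. The carriers that did not pass with the block were Slc31a1 (FDR 0.0175), Slc39a6 (0.0202), Slc39a9 (0.0393) and Slc41a1 (0.0513), and the 1 partner that passed was Steap4.

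Genes that changed sign had not passed. Total-count scaling gave LFC of -0.076 for Slc39a10, -0.12 for Slc30a4, -0.017 for Slc39a1, -0.15 for Slc39a8, -0.070 for Slc30a9, -0.014 for Slc41a2, -0.18 for Slc30a5, -0.15 for Slc39a7 and -0.10 for Slc30a6. Epithelial scaling gave -0.11, -0.20, -0.083, -0.21, -0.13, -0.069, -0.25, -0.20 and -0.16 for the same genes in that order, and -0.054 for Slc39a11. Upper-quartile scaling gave -0.0034 for Slc39a8 and -0.034 for Slc30a5, and a minimum of 10 counts in every mouse gave -0.019 for Slc30a5. Without 1 mouse at a time, LFC ranged from -0.0099 to 0.19 for Slc39a10, -0.021 to 0.13 for Slc30a4, -0.016 to 0.081 for Slc39a8, -0.041 to 0.019 for Slc31a2, -0.83 to 0.28 for Slc30a2, -0.082 to 0.055 for Slc39a3, -0.028 to 0.025 for Slc30a5 and -0.013 to 0.073 for Slc39a7. The cause of these changes was not tested. Slc39a12, Slc30a3 and Slc30a8 had too few counts to test. Whether this came from sequencing depth or from absent expression was not tested.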
